A study of Mus musculus with 14 samples.

Results

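The clustered histone genes are the genes whose symbols start with *Hist1h*, *Hist2h*, *Hist3h* or *Hist4h*. They were taken by that spelling alone from the raw count table, in which 68 of 24062 genes carried such a symbol. Of these, 6 encode H1 linker histones, 18 encode H2A, 18 encode H2B, 12 encode H3 and 13 encode H4, and 1 is annotated as a pseudogene. On the mouse genome GRCm38, 54 lie in the Hist1 cluster on chromosome 13, 10 in the Hist2 cluster on chromosome 3, 3 in the Hist3 cluster on chromosome 11 and 1, *Hist4h4*, on chromosome 6. They were compared across 14 bulk RNA-seq libraries in 3 groups. The control group was 3 libraries (DRG3, DRG4 and DRG5) of dorsal root ganglion (DRG) with nerve from Nf1fl/fl mice, which carry the floxed *Nf1* allele without Cre. The other groups were plexiform neurofibromas (PNs, benign nerve sheath tumors) of DhhCre;Nf1fl/fl mice, split by tumor volume change on MRI over the 2 months before collection into 5 slow-growing PNs (1079, 1198A, 1202, 1203 and 1206, under 5 mm3) and 6 fast-growing PNs (1053, 1071, 1179, 1191, 1214 and 1216, over 35 mm3). All mice were of a mixed background of C57BL/6, I-129 and FVBN and received no drug. Per the study's methods they were 9 months old, although a figure legend of the study gives another age for these PNs. Those methods describe DhhCre;Nf1fl/fl mice of both sexes and a background that is largely C57BL/6. The labels give no sex per library. DhhCre recombines *Nf1* in cells of the Schwann cell (SC) lineage, so the other cells of a PN keep the gene.

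Histone proteins package DNA. Pairs of H2A, H2B, H3 and H4 form the core of the nucleosome, and H1 binds where the DNA enters and leaves it. Cells need histones in bulk when they copy their DNA, and most genes of the clusters are switched on at the start of S phase, when the coactivator NPAT gathers at the clusters. Their mRNAs carry no introns and mostly no poly(A) tail: the 3′ end is a short stem-loop that SLBP binds and that directs cutting of the transcript, its translation and its rapid decay when replication stops. Some members can also give longer, polyadenylated transcripts in cells that no longer divide. Replication-independent variants such as H3.3 and H2A.Z come from genes outside the clusters, with introns and poly(A) tails.

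The stem-loop is a feature that many of these genes share, so it was looked for in the annotated transcripts (GENCODE, on GRCm38). It was found after the coding sequence of 45 of 68 members (66.2%), in 8 versions of 16 bases. A loop past the annotated end of a transcript could not be found, so the other members may also carry one. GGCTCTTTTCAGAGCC was carried by 25 of them, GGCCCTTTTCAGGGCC by 7 and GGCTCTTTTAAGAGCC by 6. Of 21877 protein-coding genes, 99 (0.453%) held such a loop anywhere in a transcript, and 46 of those 99 were members. The loops of the 6 loop-bearing members that were lower in PNs in the tests further on are shown 5′ to 3′ with 7 bases on each side, the loop in capitals and its position on GRCm38.
Hist1h2bm (chr13:21722506-21722521, plus strand): acacaaaGGCTCTTTTCAGAGCCactaagc
Hist1h1d (chr13:23555787-23555802, plus strand): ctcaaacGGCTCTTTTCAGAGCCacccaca
Hist1h1e (chr13:23621782-23621797, minus strand): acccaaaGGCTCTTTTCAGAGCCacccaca
Hist1h1c (chr13:23739512-23739527, plus strand): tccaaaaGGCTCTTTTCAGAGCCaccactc
Hist1h4d (chr13:23581950-23581965, plus strand): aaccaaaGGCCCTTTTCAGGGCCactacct
Hist1h4c (chr13:23698089-23698104, minus strand): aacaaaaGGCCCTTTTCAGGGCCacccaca

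The H1 members and *Hist1h2bm* carried the same 16 bases, and both H4 members carried the second version. For 23 members the annotated transcript ran on for at least 100 bases past the loop, and for 22 it stopped before that. It ran on for 46 bases in *Hist1h2bm*, 454 in *Hist1h4c*, 770 in *Hist1h4d*, 840 in *Hist1h1c*, 1153 in *Hist1h1e* and 4884 in *Hist1h1d*. The annotated transcripts of *Hist1h1b*, *Hist1h1a* and *Hist1h2ak*, also lower in PNs, were 743, 741 and 393 bases long. No loop was found up to their annotated ends, which does not show that these genes lack one.

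Short elements were more frequent in the promoters of the members than in promoters at large, some of them in certain classes. In 63 windows of 300 bases (250 before and 50 after the start, RefSeq, GRCm38.p6) of 62 members, CCAAT stood on either strand in 85.7%, against 37.4% of 32851 windows of all genes. TATAAA stood in 55.6% against 13.6%. ATTTGCAT, the octamer, stood in 22.2% against 1.74%, in 7 of 18 H2A and 7 of 17 H2B windows and in no other class. Windows of an H2A and an H2B gene that start close by on opposite strands can overlap. The same match can then be counted for both, as is the octamer of *Hist1h2ae* and *Hist1h2bg*. AAACACA, the element named for H1 promoters, stood in 14.3% against 7.18%, and in 5 of 6 H1 windows. CCAAT was in every window of the H1, H2A, H2B and H3 classes but in 3 of 12 of the H4 class. Windows are shown, in the direction of transcription, for the H1, H2A and H2B members with the largest fitted difference between PN and control in their class. The 4 motifs, on either strand, are in capitals, and none overlaps another in these windows.
Hist1h1b (chr13:21780576-21780875, minus strand): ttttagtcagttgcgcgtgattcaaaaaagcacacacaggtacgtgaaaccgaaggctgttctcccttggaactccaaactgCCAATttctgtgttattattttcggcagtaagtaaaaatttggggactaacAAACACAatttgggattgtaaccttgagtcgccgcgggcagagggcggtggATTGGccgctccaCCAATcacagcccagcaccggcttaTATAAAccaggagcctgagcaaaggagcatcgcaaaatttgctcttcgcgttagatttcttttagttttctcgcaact
Hist1h2ak (chr13:21753863-21754162, minus strand): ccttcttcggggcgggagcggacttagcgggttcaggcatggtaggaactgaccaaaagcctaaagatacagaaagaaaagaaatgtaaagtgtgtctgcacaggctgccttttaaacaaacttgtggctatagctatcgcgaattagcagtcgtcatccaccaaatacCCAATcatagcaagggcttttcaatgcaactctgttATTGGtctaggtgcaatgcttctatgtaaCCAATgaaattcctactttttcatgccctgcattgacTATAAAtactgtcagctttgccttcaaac
Hist1h2bm (chr13:21721794-21722093, plus strand): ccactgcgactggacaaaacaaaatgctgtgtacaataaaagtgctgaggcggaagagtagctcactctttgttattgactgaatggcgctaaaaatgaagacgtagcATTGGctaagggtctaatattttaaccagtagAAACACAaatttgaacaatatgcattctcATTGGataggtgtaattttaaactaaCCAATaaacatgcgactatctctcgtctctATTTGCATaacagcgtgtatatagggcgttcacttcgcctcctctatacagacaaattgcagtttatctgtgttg

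The window of *Hist1h1b* held every motif but the octamer, that of *Hist1h2bm* every motif but TATAAA, and that of *Hist1h2ak* neither the octamer nor the H1 element. A match is a run of letters and says nothing of binding.

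The libraries held 9596773 (DRG5) to 17594164 (1053) counts on genes. The members took 926 (1203) to 2538 (DRG5) of them, or 0.00774% to 0.0264%, and 29 to 48 members had a count in a given library. Levels below are CPM, that is counts scaled to library size, with TMM factors from all 14 libraries, on which 3 counts, the floor used for 0, are 0.167 to 0.313 CPM. Some libraries stood apart in ways that touch the members. Among the controls, DRG5 had the highest sums of markers of bone marrow granulocyte precursors (1627 CPM, against 227 in DRG3, 49.2 in DRG4 and at most 232 in any PN) and of erythroid precursors (50.9 CPM). Among the PNs, 1079 and 1191 had B cell precursor sums of 270 and 134 CPM, against at most 28.1 in the other PNs, although the marker *Vpreb2* was at 0 in all 14 libraries. Sensory neuron markers summed to 30.0 CPM in 1191 and to at least 1089 CPM elsewhere.

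Few members carried most of the counts. *Hist1h2bc*, an H2B gene of the Hist1 cluster (chr13:23684199-23692908), had 6821 counts over the 14 libraries and *Hist2h2be*, an H2B gene of the Hist2 cluster, had 3511. By contrast 18 members had 1 to 20 counts in all libraries together, and 12 had 0. In 10 of these 12 under 40% of the 50-base words of the transcript were found in no other gene, as in 15 of the 56 members with counts. The exceptions were *Hist1h2aa* (97.7% unique) and *Hist2h3c1* (65.3%). How reads that fit several genes were counted is not given in the sources used here, so a level of 0 in a near-identical copy is not a measurement of that copy. *Hist1h2ap*, which marked cycling cells in the study's single-cell data, was among them with 6.93% unique words and 0 counts, and *Hist1h2ae*, another such marker, had 20 counts in 7 libraries.

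Per kilobase of transcript, *Hist1h2bc* was also highest in controls at 41.6 CPM per kb, followed by *Hist1h4d* at 26.6, *Hist1h2ak* at 13.5, *Hist1h2bm* at 12.99, *Hist1h1b* at 10.9 and *Hist2h2be* at 9.89. *Hist1h1e* was at 8.66 CPM per kb and *Hist1h1c* at 5.15. The lengths are those of the longest annotated transcript, so the order moves with the annotation.

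Many members lie in pairs that point away from each other, an H2A gene beside an H2B gene that starts close by. There were 13 pairs of members with starts at most 500 bases apart, 12 of an H2A and an H2B gene and 1 of *Hist3h2a* and the pseudogene *Hist3h2bb-ps*. In 2 pairs (*Hist1h2bq* with *Hist1h2ao*, *Hist1h2ap* with *Hist1h2br*) both genes had 0 counts, and in the other 11 the counts differed. The widest gap was between *Hist1h2bc* with 6821 counts and *Hist1h2ac* with 18, whose starts are 251 bases apart. *Hist2h2be* had 3511 counts and its neighbor *Hist2h2ac* 166, at 239 bases. *Hist1h2ak* had 295 and *Hist1h2bn* 33, at 296 bases, and *Hist1h2bl* had 215 and *Hist1h2ai* 21, at 279 bases. Unique words made up 47.7% of *Hist1h2ak*, 13.6% of *Hist1h2bn*, 17.2% of *Hist1h2bl* and 9.88% of *Hist1h2ai*. The handling of reads that fit several genes is not given, so the gaps between these genes are uncertain. The shares were 69.4% for *Hist1h2bc*, 88.4% for *Hist1h2ac*, 100% for *Hist2h2be* and 61.4% for *Hist2h2ac*.

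Summed over all 68 members, the level was 142 CPM in DRG3, 171 in DRG4 and 265 in DRG5. The slow-growing PNs gave 106, 112, 123, 84.8 and 96.7 CPM, and the fast-growing PNs ran from 90.9 to 142 with a median of 108. All but 1 PN lay below every control, and fast-growing PN 1179 came up to DRG3, the lowest control. The means were 192 ± 64.0 CPM (SD, n = 3) for control, 104 ± 14.4 (SD, n = 5) for slow-growing PN and 112 ± 18.9 (SD, n = 6) for fast-growing PN. The difference between the PN groups was smaller than either SD.

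**Figure D1:**
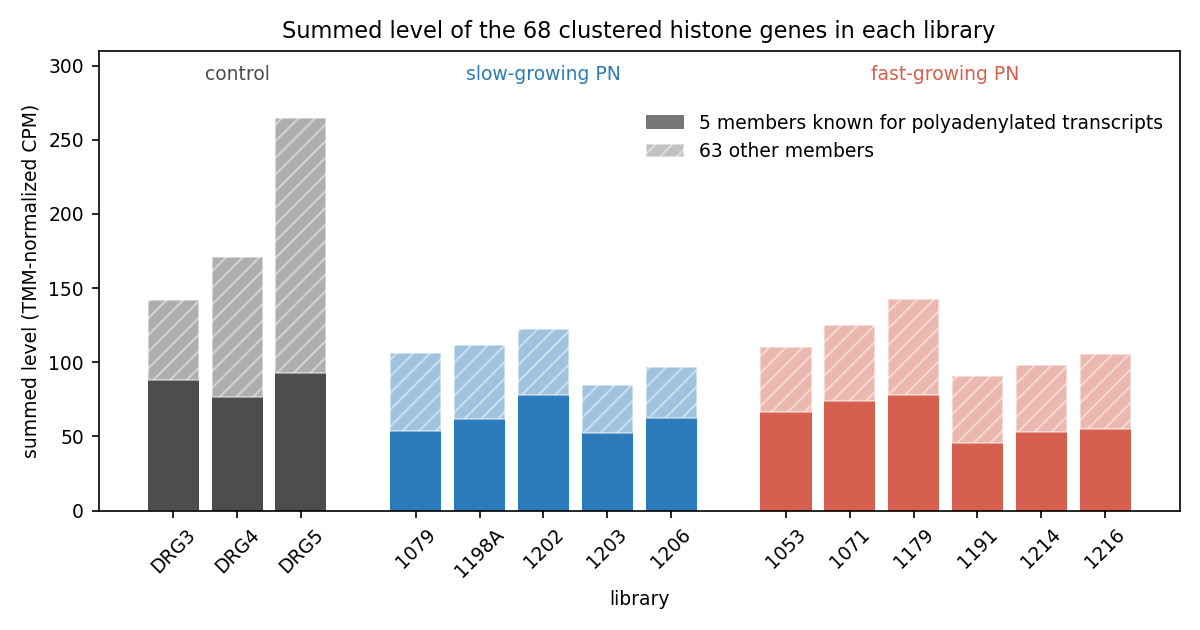
Summed level of the 68 clustered histone genes in each of the 14 libraries (bars, vertical axis in TMM-scaled CPM from 0), split into the 5 members known for polyadenylated transcripts (solid) and the 63 other members (hatched), with libraries colored by group. In controls the sum over the other 63 members spreads from 54.5 to 172 CPM, and the sum over the 5 spreads from 76.8 to 92.4 CPM.

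The spread among controls came from members outside a list of 5 known for polyadenylated transcripts in nondividing cells (*Hist1h1c*, *Hist1h2bc*, *Hist2h2be*, *Hist3h2a* and *Hist4h4*). Those 5 summed to 87.7, 76.8 and 92.4 CPM in DRG3, DRG4 and DRG5, and to 45.4 to 78.2 CPM in PNs. The other 63 summed to 54.5, 93.9 and 172 CPM in the controls and to 32.8 to 64.7 CPM in PNs. In DRG5 the list of 5 made up 34.9% of the members' sum, the lowest share of the 14 libraries, and in slow-growing PN 1206 it made up 64.7%, the highest.

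The comparison of PN with control asks which members differ once tumor has formed in the nerve. A gene was tested where its counts passed edgeR's filter on low counts, and was called at an adjusted p (Benjamini-Hochberg, over all genes tested) under 0.05 in edgeR's quasi-likelihood test. Of the 68 members 22 were tested, 9 of these were lower in PN and 0 were higher, with 11 lower and 0 higher at an unadjusted p under 0.05. Among all 16283 genes tested, 13.4% were lower and 12.9% were higher (at an unadjusted p, 18.8% were lower), so the 9 members are 40.9% of those tested against 13.4%. Without the filter, 15 of the 56 members with counts were lower, where 4330 of 21606 genes were called in either direction. DESeq2 and limma-voom each called 10 lower and 0 higher, and called 5170 and 4291 of the 16283 genes in either direction, against 4283 in edgeR. The median log2 fold change of the tested members was -0.98, and that of all genes 0.10. Of the 22, 3 reached the filter's level in too few PNs to pass without the control libraries, and 1 of these, *Hist1h1d*, was called. All 9 lie in the Hist1 cluster (15 tested), and 0 of 5 tested Hist2 and 0 of 2 tested Hist3 genes were called.

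The H1 linker histones had the most calls, 5 of the 5 tested of 6 genes. The sixth, the testis H1 gene *Hist1h1t*, was at or under 0.151 CPM in every library. Among the 5, *Hist1h1d* was tested only because of the control libraries. It reached the filter's level in 1 PN and 2 controls. Summed over the class, H1 was at 17.1, 30.7 and 64.5 CPM in DRG3, DRG4 and DRG5 and at 10.2 to 21.4 CPM in PNs. DRG5 stood highest and DRG3 fell within the range of the PNs.

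*Hist1h1b* (ENSMUSG00000058773, chr13:21779883-21780625), which encodes histone H1.5, was at 1.71 CPM in DRG3, 5.59 in DRG4 and 16.9 in DRG5. The PNs ran from 0.183 to 3.64 CPM with a median of 1.01. DRG4 and DRG5 lay above every PN, while DRG3 lay below PNs 1079, 1179 and 1191. The fitted log2 fold change was -2.57 (SE 0.63), or 5.96-fold lower, with an adjusted p of 0.00806 in edgeR. Without DRG5 the log2 fold change was -1.43 (edgeR adjusted p = 0.211).

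*Hist1h1e* (ENSMUSG00000051627), the gene of histone H1.4, was the H1 member with most counts. It was at 8.23, 14.2 and 27.7 CPM in the controls, and at 6.13 to 12.0 CPM (median 7.63) in PNs. Again DRG3 lay within the PNs and the other controls above them. It was lower in PN by a log2 fold change of -1.10 (SE 0.28, edgeR adjusted p = 0.0102). Its exons overlap those of *Hist1h2be* on the same strand, so its counts are uncertain.

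*Hist1h1c*, the gene of histone H1.2, was at 5.57, 7.61 and 10.9 CPM in controls and at 2.60 to 6.58 (median 3.97) in PNs, with a log2 fold change of -0.97 (SE 0.29, edgeR adjusted p = 0.0226). *Hist1h1d*, the gene of histone H1.3, was at 0.6002, 2.02 and 3.86 CPM in controls and at 0 to 0.756 CPM (median 0.371) in PNs. *Hist1h1a*, the gene of histone H1.1, was at 0.943, 1.19 and 5.11 CPM in controls and at 0 to 1.06 CPM (median 0.297) in PNs. In all 3 genes DRG5 was the highest of the 14 libraries and DRG3 overlapped the PNs. The log2 fold changes of *Hist1h1d* and *Hist1h1a* were -2.40 (SE 0.58) and -2.49 (SE 0.81), with adjusted p of 0.00788 and 0.0352 in edgeR. Without DRG5 they were -1.68 and -1.32 (edgeR adjusted p = 0.133 and 0.428).

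Among the core histones, H2A had 1 call of 4 tested (of 18) and H2B 1 of 9 tested (of 18). The H2A gene *Hist1h2ak* (ENSMUSG00000063021, chr13:21753435-21753827), whose promoter is shown above, was at 2.06 CPM in DRG3, 5.04 in DRG4 and 8.86 in DRG5. In PNs it was at 0.167 to 2.28 CPM with a median of 0.827. A single PN, 1079 at 2.28, came above DRG3, and the other PNs lay below all controls. It had the lowest adjusted p of the members, 0.00237 in edgeR, with a log2 fold change of -2.56 (SE 0.51). An annotated gene on the opposite strand overlaps its exons, whether the counting used strand is not given in the sources used here, and 47.7% of its 50-base words are unique.

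The H2B gene *Hist1h2bm* (chr13:21722044-21722567) was at 1.80, 6.32 and 12.3 CPM in controls and at 0 to 4.02 CPM in PNs, with a median of 0.977. DRG4 and DRG5 lay above every PN, and PNs 1079 and 1179 lay above DRG3. The log2 fold change was -2.47 (SE 0.76, edgeR adjusted p = 0.0276), and -1.72 without DRG5 (edgeR adjusted p = 0.246). *Hist1h2bl*, another H2B gene, was at 1.03, 3.30 and 4.79 CPM in controls and 0 to 2.41 CPM in PNs and did not pass (log2 fold change -1.89, edgeR adjusted p = 0.0658). Only 17.2% of its 50-base words are unique, so reads of near-identical copies bear on its value.

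The abundant H2B members did not pass in PN against control. *Hist1h2bc* was at 57.1, 42.7 and 44.6 CPM in controls and at 23.3 to 50.04 CPM in PNs, and here DRG3 rather than DRG5 was highest. Its log2 fold change was -0.41 with a 95% interval of -0.81 to -0.01 (edgeR adjusted p = 0.124). *Hist2h2be* was at 20.8, 23.8 and 33.0 CPM in controls and at 7.05 to 30.6 CPM in PNs, with a log2 fold change of -0.53 (edgeR adjusted p = 0.271). *Hist1h2be* was at 7.80, 6.32 and 11.2 CPM against 3.83 to 8.61 CPM (log2 fold change -0.51, edgeR adjusted p = 0.169). In each of these 3 genes the controls overlapped the PNs. The H2A gene *Hist3h2a*, the main Hist3 member, was at 2.57 to 4.202 CPM in controls and 1.06 to 4.29 CPM in PNs (log2 fold change -0.37, edgeR adjusted p = 0.470).

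**Figure D2:**
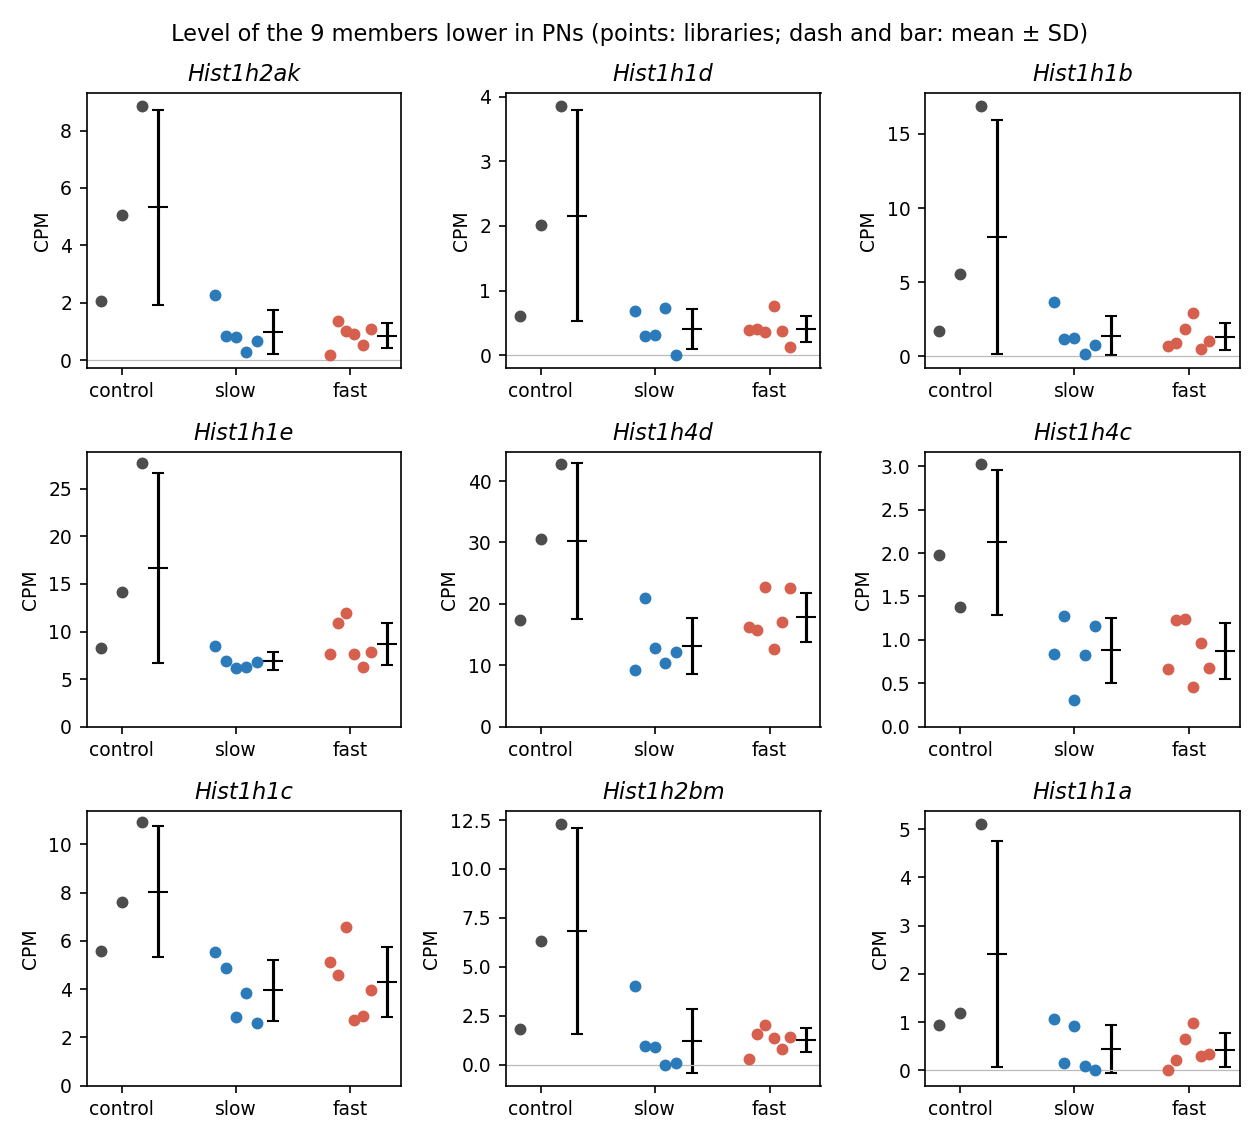
Levels of the 9 members lower in PN than in control, with a panel for each gene, in TMM-scaled CPM on its own scale. Points are libraries of the control, slow-growing and fast-growing groups, and the dash and bar beside them are the group mean ± SD. DRG5 is the highest library in each panel, and *Hist1h4c* alone shows every PN below every control.

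H4 had 2 calls of 4 tested (of 13). *Hist1h4d* (ENSMUSG00000061482, chr13:23581598-23582735), the most abundant H4 gene, was at 17.3, 30.6 and 42.7 CPM in controls and at 9.26 to 22.7 CPM (median 15.7) in PNs. DRG4 and DRG5 lay above every PN, and PNs 1198A, 1179 and 1216 lay above DRG3. The log2 fold change was -0.96 (SE 0.28, edgeR adjusted p = 0.0209). *Hist1h4c* was at 1.97, 1.37 and 3.02 CPM in controls and at 0.306 to 1.28 CPM in PNs, with a log2 fold change of -1.28 (SE 0.37, edgeR adjusted p = 0.0210). It was the only tested member with every PN below every control, 4.55% of the 22, where 9.13% of all genes tested showed that. *Hist2h4* was at 1.54 to 3.54 CPM in controls and 1.54 to 4.19 CPM in PNs, with a log2 fold change of 0.08 and a 95% interval of -0.67 to 0.82 (edgeR adjusted p = 0.897).

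Of the 12 H3 genes 0 were tested, since none had enough counts. Their sum was 1.71 CPM in DRG3, 1.92 in DRG4 and 5.11 in DRG5, and 0.366 to 2.93 CPM in PNs. The sum over all 46 members not tested was 4.37, 8.34 and 19.8 CPM in the controls and 1.65 to 6.38 CPM in PNs, and no such member had more than 76 counts in all. DRG5 was highest here as well, and DRG3 lay among the PNs.

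The number of calls in PN against control depended on which controls were in the fit, for the members and for all genes. Without DRG5, 1 of 23 tested members was called lower, *Hist1h2ak* (log2 fold change -1.97, edgeR adjusted p = 0.0451), calls over all genes went from 4283 to 2061, and the median log2 fold change of the tested members went from -0.98 to -0.52. Without DRG4, 5 of 24 members and 2476 genes were called, and the members' median was -1.02. Without DRG3, 13 of 26 members and 4264 genes were called, and the median was -1.36. With scores of skeletal muscle and fat markers as covariates 0 of 22 members were called (edgeR, 3 lower at an unadjusted p under 0.05), where 477 of the 16283 genes were called, and the members' median log2 fold change was -1.25. With the granulocyte precursor score as a covariate 1 member, *Hist1h2ak*, and 2170 genes were called, with a members' median of -0.61. With the trend of counts on transcript length and GC content removed 3 members, *Hist1h2ak*, *Hist1h1d* and *Hist1h1e*, and 3516 genes were called, with a members' median of -0.50.

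Transcripts of other cells also differed between PN and control. Of 8 tested granulocyte precursor markers, such as *Mpo* (17.7, 1.56 and 154 CPM in DRG3, DRG4 and DRG5) and *S100a9* (85.1, 21.0 and 637 CPM), 7 were lower in PN than in control and 0 higher. In the study *S100a9* was the top marker of putative myeloid-derived suppressor cells, so the summed level of these markers is not of precursors alone. Of 4 tested erythroid precursor markers 4 were lower, with sums of 5.59 to 50.9 CPM in controls and 0.941 to 12.3 CPM in PNs. In DRG3, DRG4 and DRG5 the 63 members outside the polyadenylated list summed to 54.5, 93.9 and 172 CPM. The granulocyte precursor sums there were 227, 49.2 and 1627 CPM, against 17.7 to 232 CPM in PNs. The erythroid precursor sums were 14.9, 5.59 and 50.9 CPM, and the skeletal muscle sums were 11545, 25984 and 40834 CPM. Skeletal muscle markers were lower in PN for 8 of 15 (summed level 11545 to 40834 CPM in controls, 71.8 to 13266 CPM in PNs) and fat markers for 3 of 13 (4344 to 6131 CPM in controls, 45.8 to 3547 CPM in PNs). SC markers were higher for 4 of 9. The proliferation gene *Mki67* was at 43.0, 129 and 319 CPM in DRG3, DRG4 and DRG5, at 123 and 179 CPM in PNs 1079 and 1191, and at 11.6 to 67.98 CPM in the other PNs. The part of these cells in the members' difference was not tested. In bulk tissue, fewer cells of a type and less RNA per cell cannot be told apart.

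**Figure D3:**
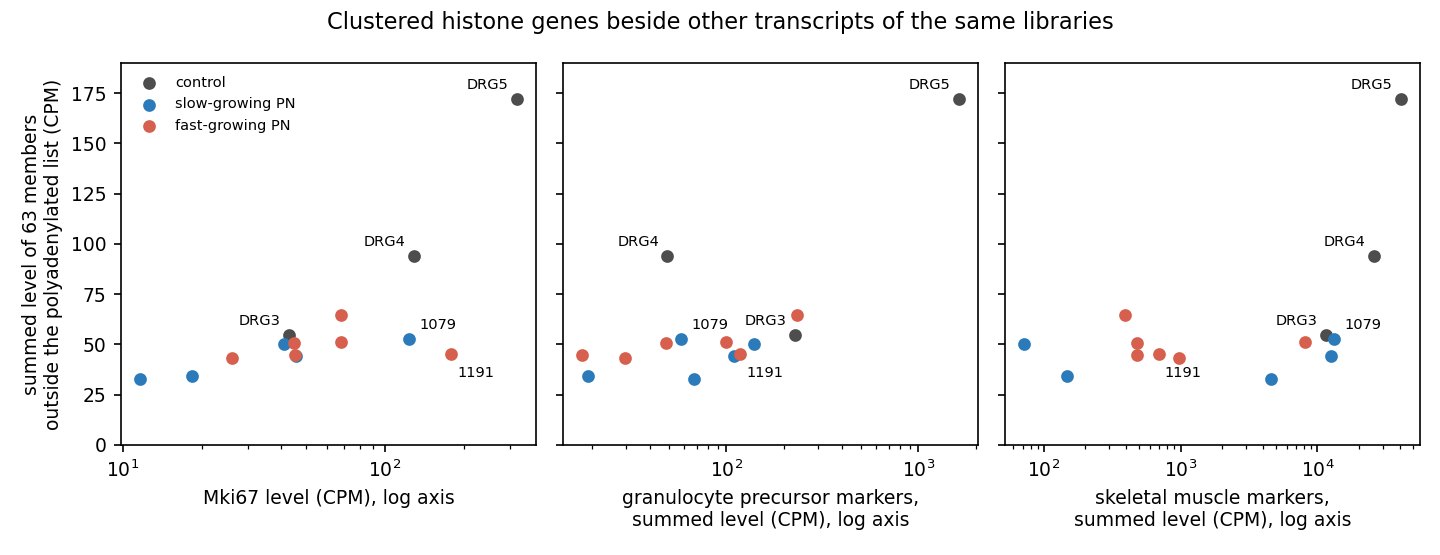
Summed level of the 63 members outside the polyadenylated list (vertical axis, TMM-scaled CPM) against *Mki67*, the granulocyte precursor sum and the skeletal muscle sum (horizontal axes, TMM-scaled CPM, log scales), 1 point a library and colored by group. DRG5, at 172 CPM of members, is also the library with most *Mki67* (319 CPM), granulocyte precursor (1627 CPM) and muscle (40834 CPM) transcripts, while PN 1191 has 179 CPM of *Mki67* and 45.4 CPM of members.

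Both PN groups were set against the same 3 controls, so these comparisons share them. In slow-growing PNs 3 of 19 tested members were lower and 0 higher (15.8%, against 7.13% lower and 4.12% higher of 15714 genes tested). At an unadjusted p under 0.05, 8 were lower and 0 higher, against 17.0% and 13.3% of all genes. The 3 were *Hist1h2ak* (log2 fold change -2.47, SE 0.66, edgeR adjusted p = 0.0463), *Hist1h1e* (-1.33, SE 0.36, edgeR adjusted p = 0.0463) and *Hist1h4d* (-1.27, SE 0.35, edgeR adjusted p = 0.0496). Of the 19, 7 reached the level of the filter on low counts in too few slow-growing PNs to pass without the control libraries. *Hist1h2ak* was among them, at that level in 1 slow-growing PN and 3 controls. *Hist1h1b* had a log2 fold change of -2.54 and did not pass (edgeR adjusted p = 0.0944). The calls were near the threshold. Every slow-growing PN was below every control for 2 of the 19 (10.5%), *Hist1h4c* and *Hist1h1c*, against 12.0% of all genes tested. The number of calls moved with the libraries and the tool, for the members and for all genes (1769 called in either direction). Without DRG4, DRG5, 1202 or 1206, 0 members were called, and 685, 599, 1052 and 1232 genes. Without 1079, 1198A or 1203, 1 member was called, and 957, 1488 and 1954 genes. Without DRG3, 8 members and 2454 genes were called. DESeq2 called 6 members and 3529 genes, and limma-voom 0 members and 1844 genes. The log2 fold change of *Hist1h2ak* was -3.07 without 1079.

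In fast-growing PNs 7 of 22 tested members were lower and 0 higher (31.8%, against 16.7% lower and 14.8% higher of 16037 genes tested). At an unadjusted p under 0.05, 11 were lower and 0 higher, against 21.5% and 20.2% of all genes. *Hist1h2ak* was at 0.167 to 1.37 CPM in fast-growing PNs, below all 3 controls, with a log2 fold change of -2.74 (SE 0.58, edgeR adjusted p = 0.00632). Every fast-growing PN was below every control for this gene and *Hist1h4c*, 9.09% of the 22 against 14.9% of all genes tested. *Hist1h1d* (-2.48, adjusted p = 0.0115), *Hist1h2bm* (-2.53, adjusted p = 0.0128) and *Hist1h1b* (-2.70, adjusted p = 0.0165) followed in the edgeR test. *Hist1h4c* (-1.35, adjusted p = 0.0297), *Hist1h1a* (-2.62, adjusted p = 0.0440) and *Hist1h1c* (-0.98, adjusted p = 0.0497) also passed in edgeR. Of the 22, 6 reached the level of the filter on low counts in too few fast-growing PNs to pass without the control libraries. Of these 6, *Hist1h1d* and *Hist1h1a* were called, each at that level in 1 fast-growing PN. *Hist1h4d* and *Hist1h1e*, called in slow-growing PNs, had log2 fold changes of -0.84 and -1.03 and missed the threshold (edgeR adjusted p = 0.0517 and 0.0551). *Hist1h2bc* (-0.56, adjusted p = 0.0510) and *Hist1h2be* (-0.78, adjusted p = 0.0564), both abundant H2B genes, missed it too in edgeR, while DESeq2 called both and limma-voom called *Hist1h2bc*. Over all genes 5043 were called in either direction. Without DRG5, 1 member (*Hist1h2ak*) and 3342 genes were called, without 1216, 4 members and 4395 genes, and without DRG3, 11 members and 5247 genes. DESeq2 called 11 members and 5868 genes, and limma-voom 5 members and 4790 genes. Without DRG5 the log2 fold changes of *Hist1h2ak*, *Hist1h1d*, *Hist1h2bm*, *Hist1h1b* and *Hist1h1a* were -2.08, -1.69, -1.72, -1.48 and -1.39. Skeletal muscle markers were lower for 13 of 15 and fat markers for 13 of 13 here, and fibroblast markers were higher for 5 of 5. Granulocyte precursor markers were lower for 6 of 9 tested and erythroid precursor markers for 3 of 3 tested.

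**Figure D4:**
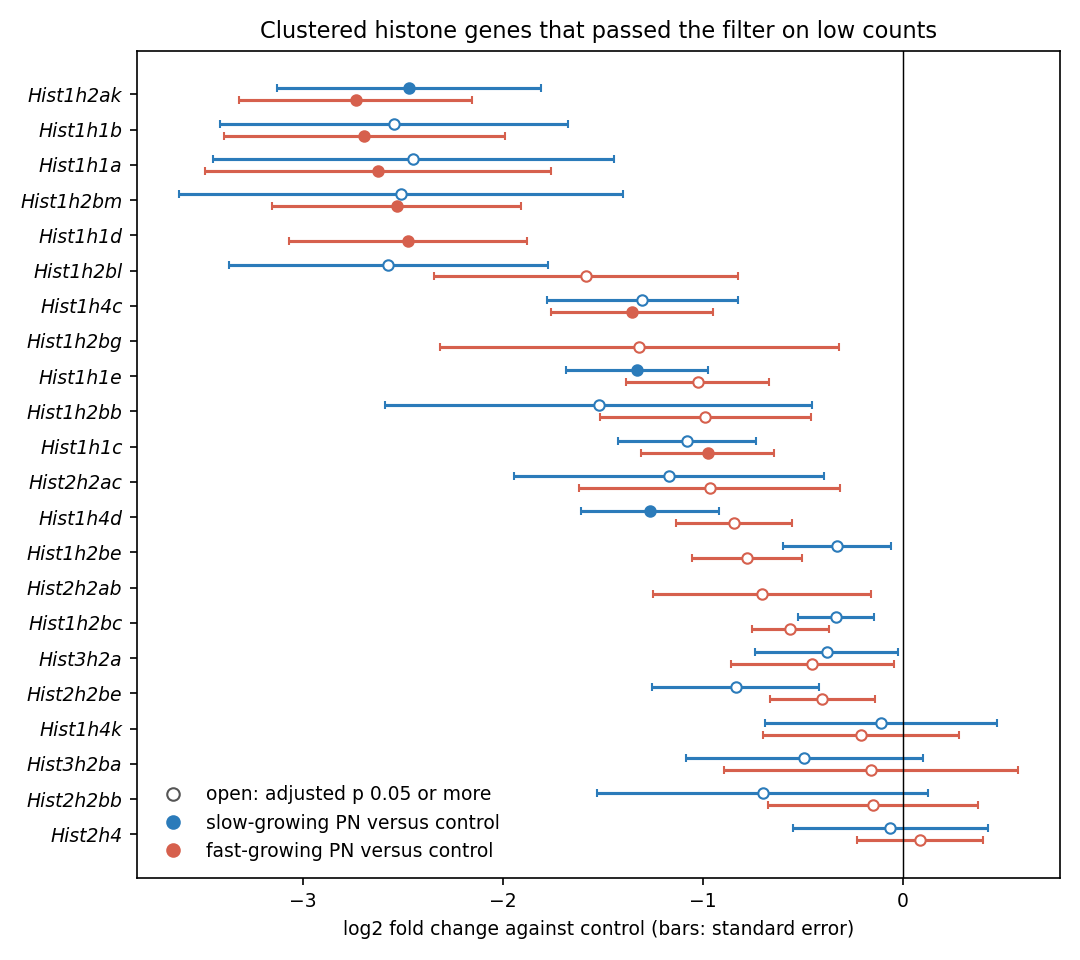
Log2 fold changes with standard errors (edgeR) of the 22 tested members in slow-growing PN versus control (blue, 19 members) and fast-growing PN versus control (red). Filled symbols passed an adjusted p of 0.05. Each point lies below 0 except that of *Hist2h4* in fast-growing PN, at 0.09.

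The comparison of fast- with slow-growing PNs asks whether members follow the growth rate on MRI. Of 15 tested members, 0 were higher and 0 lower in edgeR, DESeq2 and limma-voom, and 0 in edgeR at an unadjusted p under 0.05 (DESeq2 1 lower). Of all 15465 genes tested 0.802% were higher and 0.466% lower (11.9% and 8.51% unadjusted). These shares moved with the tool and the libraries. In either direction 196 genes were called in edgeR, 1570 by DESeq2 and 34 by limma-voom. Leaving out 1 library gave from 2 genes (as without 1079) to 1194 (without 1198A) in edgeR. The median log2 fold change was 0.01 for the tested members and -0.03 for all genes. For 0 of the 15 members did all fast-growing PNs lie above or all below the slow-growing PNs, against 2.13% and 0.905% of all genes tested.

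The intervals show how large a difference these 11 libraries allow. For *Hist1h1e*, at 6.13 to 8.43 CPM in slow-growing and 6.31 to 12.0 CPM in fast-growing PNs, the log2 fold change was 0.33 with a 95% interval of -0.09 to 0.76. For *Hist1h2bc* it was -0.22 (-0.61 to 0.18), and for *Hist1h1c* 0.12 (-0.51 to 0.75). For *Hist1h4d*, at 9.26 to 20.9 CPM in slow-growing and 12.6 to 22.7 CPM in fast-growing PNs, it was 0.44 (-0.07 to 0.95). Each of these 4 intervals lies within a 2-fold difference. The interval of *Hist2h2be*, also abundant, was wider, with a log2 fold change of 0.45 (-0.28 to 1.18). Those of some low members were wide as well. For *Hist1h2ak* the log2 fold change was -0.23 (-1.464 to 0.997), for *Hist1h1b* -0.11 (-1.51 to 1.28) and for *Hist1h2bm* 0.01 (-1.87 to 1.90), so a 2-fold difference in these genes may have gone undetected at this depth.

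Other genes of histone supply were described from lists. Of 11 histone genes listed as replication-independent, 10 were tested. Whether each is independent of replication was not measured here. In PN 4 of the 10 were lower than in control and 0 higher, against 13.4% and 12.9% of all genes tested. Without DRG5, and likewise without DRG4, 2 of them were called, *H2afx* and *H2afz*. *H2afx*, the variant phosphorylated at DNA breaks, was at 11.5, 19.5 and 29.4 CPM in DRG3, DRG4 and DRG5 and at 5.12 to 12.6 CPM in PNs. DRG3 fell within the PNs and the other controls lay above. Its log2 fold change was -1.22 (SE 0.24, edgeR adjusted p = 0.00225). *H2afz* (H2A.Z; -0.89, adjusted p = 0.00235), *H2afj* (-0.89, adjusted p = 0.0131) and *H3f3a* (H3.3; -0.76, adjusted p = 0.0157) were also lower in edgeR. The same 4 genes were lower in slow-growing PNs against control. In fast-growing PNs *H2afv* was lower too, and *H3f3b*, the second H3.3 gene, was higher (0.56, edgeR adjusted p = 0.0293).

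Of 15 genes of histone gene transcription and mRNA 3′ processing, 0 were lower and 1 was higher in PN than in control. Of all genes tested, 13.4% were lower and 12.9% higher. *Npat*, the coactivator of the clusters, was at 34.6, 35.6 and 37.2 CPM in controls and at 41.0 to 53.8 CPM in PNs. Every PN lay above every control, as in 8.51% of all genes tested, and its log2 fold change was 0.34 (edgeR adjusted p = 0.0241). Against control, 0 of the 15 were called in slow- or fast-growing PNs alone (edgeR). At an unadjusted p under 0.05, 0 were lower or higher in slow-growing PNs, against 17.0% and 13.3% of all genes. In fast-growing PNs 1 was lower and 2 were higher, against 21.5% and 20.2%. Without any 1 of the 3 controls, *Npat* was not called. Of 12 histone chaperones, 2 were lower and 1 was higher in PN than in control, against 13.4% and 12.9% of all genes tested. *Asf1b*, which carries H3 and H4 to replicating DNA, was lower (-1.72, edgeR adjusted p = 0.0102). *Nap1l4* was lower (-0.69, adjusted p = 0.00556) and *Supt16*, a subunit of FACT, was higher (0.43, adjusted p = 0.0374) in edgeR. *Supt16* was not called without any 1 of the controls, and *Asf1b* was not called without DRG5.

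Of 23 S phase and DNA replication genes, 7 were lower in PN than in control and 1 was higher, against 13.4% and 12.9% of all genes tested. Their summed level was 248, 484 and 860 CPM in DRG3, DRG4 and DRG5 and 184 to 575 CPM in PNs, so that DRG5 lay above every PN and the other controls lay among them. Of the 23, 0 were lower without DRG5 in edgeR (3 at an unadjusted p under 0.05), 3 without DRG4 and 12 without DRG3, with *E2f1* higher each time. *Tk1*, the thymidine kinase of S phase, was at 8.403, 15.6 and 16.9 CPM in controls and at 2.01 to 11.1 CPM in PNs (log2 fold change -1.40, edgeR adjusted p = 0.0104). *Tyms*, which makes thymidylate, was at 27.4, 35.8 and 39.0 CPM in controls and 12.7 to 28.1 CPM in PNs (-0.79, edgeR adjusted p = 0.00648). *Ccne1*, *Pcna*, *Cdt1*, *Mcm3* and *Cdc45* were the other 5. *E2f1*, a transcription factor of the G1 to S transition, was the exception, at 6.69, 7.42 and 9.28 CPM in controls and 14.3 to 25.5 CPM in PNs, with no overlap (log2 fold change 1.18, edgeR adjusted p = 0.000583). Between fast- and slow-growing PNs 0 genes of these lists were called in edgeR. At an unadjusted p under 0.05 there, 1 of the 10 variants and 5 of the 12 chaperones were higher, 1 processing gene and 1 chaperone lower, and 0 of the 23 S phase genes were either, against 11.9% higher and 8.51% lower of all genes tested.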

How the data were processed

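Total RNA was amplified (Ovation RNA-Seq System v2) and sequenced by the authors. Per the submitters' processing notes they used CASAVA 1.4, FastQC 0.11.0, TopHat2 2.0.9, featureCounts 1.5.2 and edgeR 3.16.5 with the mouse build mm10. The authors deposited raw counts per gene, which were used here, and a table of log2 values, which was not. Annotation, strand and the handling of reads that fit several genes are not given in the sources used here, and how well transcripts without a poly(A) tail were captured was not measured.

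Genes passing filterByExpr in the libraries compared were tested with edgeR 4.0.16 (TMM, quasi-likelihood, Benjamini-Hochberg adjustment over all genes tested, threshold 0.05, R 4.3.3), in a separate fit for each comparison without covariates. SE is the size of the log2 fold change over the square root of F, and 95% intervals use the fit's degrees of freedom. Levels and sums were computed in Python 3.11.15. The procedure was tested on simulated data. Sequences came from GENCODE vM21 and RefSeq GRCm38.p6, the same assembly as mm10. All 68 members matched both, and 62 had a promoter sequence. *Hist1h2bc*, *Hist2h2be*, *Hist2h4*, *Hist1h3f*, *Hist1h3a* and *Hist3h2bb-ps* did not.

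The members, lists and tests were chosen with earlier results of these data known. Members named are the 12 of highest mean level, those called in any comparison (up to 15), *Hist1h1b*, *Hist1h2ap* and *Hist1h2ae* as markers of the study's cycling cells, and up to 6 called genes of each other list. Further names, such as *Hist1h1t*, pair partners and single markers of other cells, were chosen after their values were seen. Alternatives were DESeq2 1.42.0, limma-voom 3.58.1, other size factors, no filter, a joint fit, muscle and fat covariates and leaving out each library. The granulocyte precursor covariate, the fit without PNs 1079 and 1191 and the length and GC trend were added after seeing the data. Nothing in the labels says that each library is a separate animal, so p-values measure the spread between libraries. Floors cover counting error only.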

Additional observations from a re-analysis of the deposited data

Results flagged for a closer look

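Over 38 groups of 5 or 6 libraries, 4 had a highest library far from the others by Dixon's test at the 95% level, and chance flags about 1 group in 20. The sum over the 63 members outside the polyadenylated list was 64.7 CPM in fast-growing PN 1179, and the next fast-growing PN was at 51.3 CPM. In slow-growing PN 1079, *Hist1h2bm* was at 4.02 CPM, and the next slow-growing PN at 0.977 CPM. In the same library *Hist1h2ak* was at 2.28 CPM, and the next at 0.827 CPM. *Hist1h2ae* was at 0.366 CPM in slow-growing PN 1203, which is 4 counts, and the next at 0.0759 CPM, or 1 count.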

How the results depend on the processing

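The number of members lower than in control changed with the processing. In PN against control it was 9, 15 without the filter on low counts, 3 with the length and GC trend removed, 1 with the granulocyte precursor covariate and 0 with muscle and fat covariates, and 1 to 13 when a library was left out. In slow-growing PNs it was 3 (with 1769 genes called in all), 6 by DESeq2 (3529 genes), 6 with a joint fit of all libraries (3280), 1 without the filter (1561), 0 by limma-voom (1844), and 0 with the length and GC trend removed (1160), the granulocyte precursor covariate (428) or the muscle and fat covariates, and 0 to 8 when a library was left out. In fast-growing PNs it was 7 (5043 genes), 11 by DESeq2 (5868), 1 with the length and GC trend removed (4495), 1 with the granulocyte precursor covariate (3159) and 0 with muscle and fat covariates, and 1 to 11 when a library was left out. With muscle and fat covariates 477 of 16283 genes were called in PN against control, and 0 genes of all tested were called in slow- or fast-growing PNs, so that setting says nothing of the members there. In each of these settings 0 members were higher, and between fast- and slow-growing PNs, where the granulocyte precursor covariate was not run, 0 were called. Without *Hist1h2bc*, the member of highest level, slow-growing PNs had a mean sum of 64.7 CPM, and the fast-growing ones had 77.9 CPM. *Hist1h2ak* in PN against control was called in 22 of 23 alternatives, with adjusted p from 9.74e-05 to 0.414 (edgeR, DESeq2 or limma).

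Log2 fold changes that changed sign were those near 0 or under the muscle and fat covariates. Under those covariates *Hist1h2bc* was at 0.023 and *Hist1h2be* at 0.21 in PN against control, *Hist1h1b* at 0.36, *Hist1h2bm* at 0.36 and *Hist1h1a* at 0.85 in slow-growing PNs, *Hist1h1d* at 1.66, *H3f3b* at -0.057, *Ccne1* at 0.17 and *Pcna* at 0.015 in fast-growing PNs, and *Hist1h1c* at -0.33 and *Hist1h1b* at 0.47 in fast against slow. In fast against slow, *Hist1h1b* was at 0.085 by limma-voom, *Hist1h2bm* at -0.018 with the length and GC trend removed, and *Hist1h1b*, *Hist1h2ak* and *Hist1h4c* at 0.26, 0.37 and 0.11 without PNs 1079 and 1191. Leaving out each library in turn gave -0.18 to 0.39 for *Hist2h4* in PN against control, and in fast against slow -0.057 to 0.31 for *Hist1h1c*, -0.53 to 0.64 for *Hist1h1b*, -0.30 to 1.31 for *Hist1h2bm*, -0.47 to 0.38 for *Hist1h2ak* and -0.24 to 0.15 for *Hist1h4c*. The causes were not tested. No paired analysis was possible because the groups share no replicate numbers. Counts limit what can be seen of the 46 members not tested, none of which had more than 76 counts.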
